A study of Homo sapiens with 6 samples.

Results

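The genes described here are 34 human genes of mitosis and the spindle checkpoint, and the data are the USP39 binding sites that fall in them. A site was counted for a gene when its central base lay in the gene's span, on the strand that carried most of the gene's sites. By this rule 178 of the 34781 deposited sites (0.512%) belonged to the 34 genes. The sites came from iCLIP2 on wild-type HEK293T cells, a widely used line derived from human embryonic kidney. Cells were crosslinked with UV light at 254 nm, and RNA bound to USP39 was pulled down with an anti-USP39 antibody. Libraries were made from a low and a high membrane region, with 3 replicates each, 6 libraries in all, and no group differed in genotype or treatment. One merged list was deposited. It holds no value per library, every site is 5 nt wide and has a score of 0, and the read depth is unknown. The counts below therefore have no replicate error, no difference between genes was tested, and the 2 membrane regions were not compared. A control without UV light is named in the design and was not analysed here.

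USP39 is a protein of the tri-snRNP, the particle of U4, U6 and U5 small nuclear RNAs that joins the spliceosome before the first step of splicing. Splicing of AURKB, which encodes the Aurora B kinase, has been reported to depend on USP39. Aurora B is the kinase of the chromosomal passenger complex, which corrects faulty attachments of chromosomes to the spindle. The spindle checkpoint holds cells before anaphase until every kinetochore is attached. Once it is satisfied, CDC20 activates the anaphase promoting complex, an ubiquitin ligase, and separase cuts cohesin so that sister chromatids part.

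Sequence could be read for 7 of the 178 sites, those that lie with their flanks in a RefSeq promoter window (build GRCh38.p14), and for 1 more site whose centre is the base before SMC4. They are shown because they include the sites at the 5′ ends of AURKB, NCAPD2 and SMC4. Each line is in the sense of the site, with the bases of the site or sites in capitals and the flanking bases in lower case.

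AURKB, 2 abutting sites at chr17:8210231-8210240, minus strand: gctctcctccCCCTTTCTCTctaaggatgg

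NCAPD2, 2 sites within chr12:6494103-6494113, plus strand: tgttttttcCTTTTcATTTCagcctgact

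SMC4, site at chr3:160399647-160399651, plus strand: tgtattttaggcGCCATtttcgagtgaag

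SMC4, site at chr3:160400401-160400405, plus strand: ccggacacgaacTCGTTtctccacgtcgg

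MAD2L1, site at chr4:120066750-120066754, minus strand: ggaagcgcgtgcTTTTGtttgtgtccctg

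PRC1, site at chr15:90966368-90966372, minus strand: cattgggagtctGTTTGttccaatgggtt

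The capitals were rich in T. Of the 40 bases in these 8 sites 23 were T (57.5%), against 31.9% of the flanking bases printed. For comparison, the list held 696 sites in such windows on the strand of the window's gene. In these, T made up 46.1% of site bases and 24.7% of flanking bases. The 8 sites above were read without this strand rule. The AURKB sites held 5 T and 5 C and no purine. RefSeq gives AURKB a start at position 8210225 and another at 8210249. Counted from the second, the AURKB sites covered bases 10 to 19 of the transcript, and counted from the first they lay upstream, at bases -15 to -6. The span of AURKB begins further upstream than both starts, at position 8210575, so the sites lay inside the span. In NCAPD2 the sites lay within bases 2 to 12 of the gene, the first of them in a run of pyrimidines that began upstream of the start. The boundary site of SMC4 covered bases -3 to 2 around its first start. That site is not in the count of 178. The PRC1 site lay near the 3′ end of its gene, in a window of the antisense gene PRC1-AS1. The MAD2L1 site, at bases 95 to 99 of MAD2L1, lay in a window of the divergent gene MAD2L1-DT.

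Of the 34 genes, 28 had at least 1 USP39 site (82.4%, 95% Wilson interval 66.5% to 91.7%, which covers counting error only), while 23.1% of all 20037 protein-coding genes had one by the same rule. The 34 genes were chosen with earlier results of these data known, which the interval does not cover. RNA abundance was not measured, so its part in this difference was not tested. At least 3 sites were found in 17 of the 34 genes, against 12.8% of protein-coding genes, and at least 10 in 8 of the 34, against 4.61%. The median of the listed genes with a site was 4 sites, beside 3 for all protein-coding genes with a site. Per kb of gene span these medians were 0.163 and 0.127 sites. The 6 genes without a site were AURKA, BUB1B, CENPA, CENPE, KIF20A and NUSAP1. Among the 19 listed genes that overlap no other gene, 15 had a site (78.9%), beside 1764 of 8833 such protein-coding genes (20%).

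Sites were concentrated in few of the genes. SMC4, a core subunit of condensin, alone held 36 of the 178 (20.2%). SMC4, NCAPD2, TOP2A, PRC1 and BUB3 together held 52.2%. With BIRC5, CENPF and AURKB, the 8 genes with 10 or more sites held 70.2%. Another 13 genes had 2 to 9 sites, and 7 had a single one. The number of sites did not follow the length of the gene closely (Spearman's rho -0.12 across the 34 genes, a description with no test). No listed gene had a site on its opposite strand. RefSeq gives a strand for 29 of the 34, and in the 24 of these with a site every site lay on that strand. This is near the general share. In protein-coding genes that overlap no other gene and have a strand given, 99.1% of sites lay on it.

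**Figure D1:**
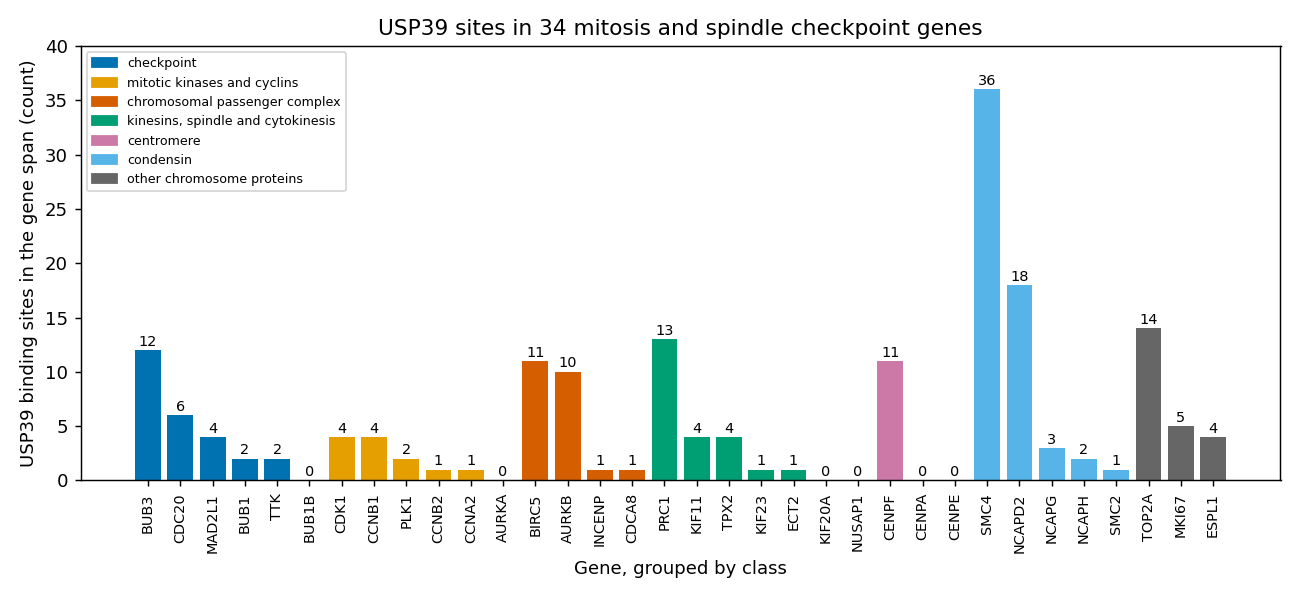
Number of USP39 sites in the span of each of the 34 genes; bars are counts from 1 merged list, coloured by class, with the count above each bar and no error bars because there are no replicate values. SMC4 (36 sites) stands above NCAPD2 (18), TOP2A (14) and PRC1 (13), and 6 genes stand at 0.

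AURKB had 10 sites in a short gene of 5845 nt (gene ID 9212, chr17:8204731-8210575, minus strand). Its density, 1.71 sites per kb, was the highest of the 34 genes, and 8.43% of protein-coding genes with a site were at least as dense. By number of sites it ranked eighth, and 19.9% of protein-coding genes with a site had at least as many. Its sites fell in 3 stretches of the gene. The first was the abutting couple printed above, centred on nucleotides 338 and 343 of the span. After a gap of 2655 nt without a site, 5 sites were centred on nucleotides 2998, 3265, 3722, 3883 and 4048. They lay at chr17:8207576-8207580, chr17:8207309-8207313, chr17:8206852-8206856, chr17:8206691-8206695 and chr17:8206526-8206530. The last 3 sites were close to the 3′ end, at chr17:8205256-8205260, chr17:8204838-8204842 and chr17:8204830-8204834, which is 528, 110 and 102 nt from the end of the gene. Joining sites within 50 nt left AURKB with 8. Exons were not in the tables used here, so none of these sites could be placed in an exon, an intron or at a splice site.

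The other subunits of the chromosomal passenger complex were uneven. BIRC5, which encodes survivin, the subunit that binds histone H3 at centromeres, had 11 sites in 11383 nt (chr17:78214253-78225635, plus strand of sites; 0.966 per kb). They formed 2 groups, 3 sites within the opening 488 nt and 8 sites between nucleotides 9211 and 10148, with 8723 nt between the groups. INCENP, the scaffold of the complex, had 1 site, 980 nt from its 3′ end. CDCA8, which encodes borealin, also had 1 site, centred on nucleotide 123. AURKB and BIRC5 therefore carried 21 of the 23 sites of this complex.

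Genes of the spindle checkpoint held 26 sites, with a site in 5 of 6. BUB3, a kinetochore adaptor that brings BUB1 and BUBR1 to their platform, had 12 sites at chr10:123154402-123170467 (0.747 per kb). Of these, 8 lay between nucleotides 7978 and 10905, and none lay in the last 10% of the span. CDC20, the activator of the anaphase promoting complex and the target of the checkpoint, had 6 sites in only 4223 nt (chr1:43358981-43363203). Its density of 1.42 per kb was the second highest of the 34 genes, and 5 of the 6 sites lay between nucleotides 1236 and 2127. MAD2L1, whose product MAD2 binds and holds CDC20, had 4 sites, at nucleotides 97, 1052, 6635 and 7234. BUB1 and TTK, both checkpoint kinases, had 2 sites each in long spans (0.0493 and 0.0528 per kb). One of the BUB1 sites lay in SNORD132, a small nucleolar RNA gene in its span, which left 1 for the rest of BUB1. BUB1B, the gene of BUBR1, had none. No site of any checkpoint gene fell in the last 10% of its gene. Only 3 of the 6 genes had at least 3 sites. Of the 2558 protein-coding genes with at least 3 sites, 872 also had none there.

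Mitotic kinases and cyclins outside the passenger complex had 12 sites in 6 genes. Their density was 0.134 sites per kb, beside 0.163 over all 34 genes. CDK1, the kinase that drives entry into mitosis, had 4, of which the last 2 were centred 501 and 399 nt from its 3′ end. CCNB1, which encodes cyclin B1, a partner of CDK1, had 4 sites, with centres at nucleotides 4280, 4286, 7245 and 7734. CCNB2 and CCNA2, which encode cyclins B2 and A2, had 1 site each. PLK1, a kinase of centrosome maturation and mitotic exit, had 2 sites, 1 of them 145 nt from the 3′ end. AURKA, the Aurora kinase of spindle poles, had none in 22826 nt. AURKA and AURKB, paralogous kinases, thus had 0 and 10 sites. Taking all 7 protein kinases of the list (AURKA, AURKB, BUB1, BUB1B, TTK, PLK1 and CDK1), 5 had a site, and AURKB held 10 of their 20 sites.

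Among the kinesins and the genes of the spindle and cytokinesis, PRC1 led with 13 of 23 sites. PRC1 (chr15:90966040-90994535) bundles the microtubules of the central spindle. Its sites began at nucleotide 12693 of 28496, and 7 of the 13 (53.8%) lay in the last 10% of the gene. All lay on the minus strand, which is that of PRC1, although the antisense gene PRC1-AS1 covers the same region on the plus strand. TPX2, an activator of Aurora A on spindle microtubules, had 4 sites, 3 of them 610, 349 and 340 nt from its 3′ end. KIF11, the kinesin that pushes spindle poles apart, had 4 sites spread from nucleotide 231 to 60754. KIF23, a kinesin of the midbody, and ECT2, an exchange factor for RhoA at the cleavage furrow, had 1 each, and KIF20A and NUSAP1 had none. The class had the lowest density after the centromere genes, 0.0713 and 0.0677 sites per kb.

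Of 3 centromere genes, CENPF alone had sites. CENPF, a large protein of the outer kinetochore, had 11 in 61377 nt (chr1:214603195-214664571), and 7 of these lay between nucleotides 38213 and 42067. CENPA, the centromeric histone H3 variant, spans 8534 nt and had none. CENPE, a kinesin of the kinetochore, had none in 92533 nt, the longest span of the 34 genes.

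The condensin genes held more sites than any other class, 60 in 5 genes. Without SMC4 they held 24, fewer than the 26 of the checkpoint genes. Per kb the condensin class had 0.298 sites, below the 0.362 of the chromosomal passenger complex. Condensin is a ring of SMC2 and SMC4 closed by NCAPH, with NCAPD2 and NCAPG bound to it, and it compacts mitotic chromosomes. SMC4 (gene ID 10051, chr3:160399650-160434953, plus strand) had 36 sites, and 3.18% of protein-coding genes with a site had at least as many. At 1.02 per kb its density came next after those of AURKB and CDC20. The opening 2310 nt of SMC4 held 14 sites, and the last 10% of the gene held 10. All 36 lay on the plus strand, although the span of SMC4 lies within the noncoding locus TRIM59-IFT80, annotated on the minus strand. Its partner SMC2 had 1 site in a longer span of 53157 nt. The microRNA genes MIR15B and MIR16-2 lie in the SMC4 span. Neither held a site, and the nearest was centred 95 nt from MIR15B.

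NCAPD2 (chr12:6494102-6531955, plus strand) had 18 sites, but 7 of them lay in SCARNA10, a small Cajal body RNA gene of 330 nt within its span, between positions 23 and 285 of that RNA. Without these, 11 sites were left for NCAPD2. The split follows the central base: 1 of the 11, at chr12:6510219-6510223, overlaps the first bases of SCARNA10, which starts at 6510222, while its centre lies just before that start. Those 11 included the couple at its first bases and 1 site centred 122 nt from its 3′ end. NCAPG had 3 sites and NCAPH 2. Whether the sites in SCARNA10 came from the small RNA or from the NCAPD2 transcript cannot be told apart in a list of positions.

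**Figure D2:**
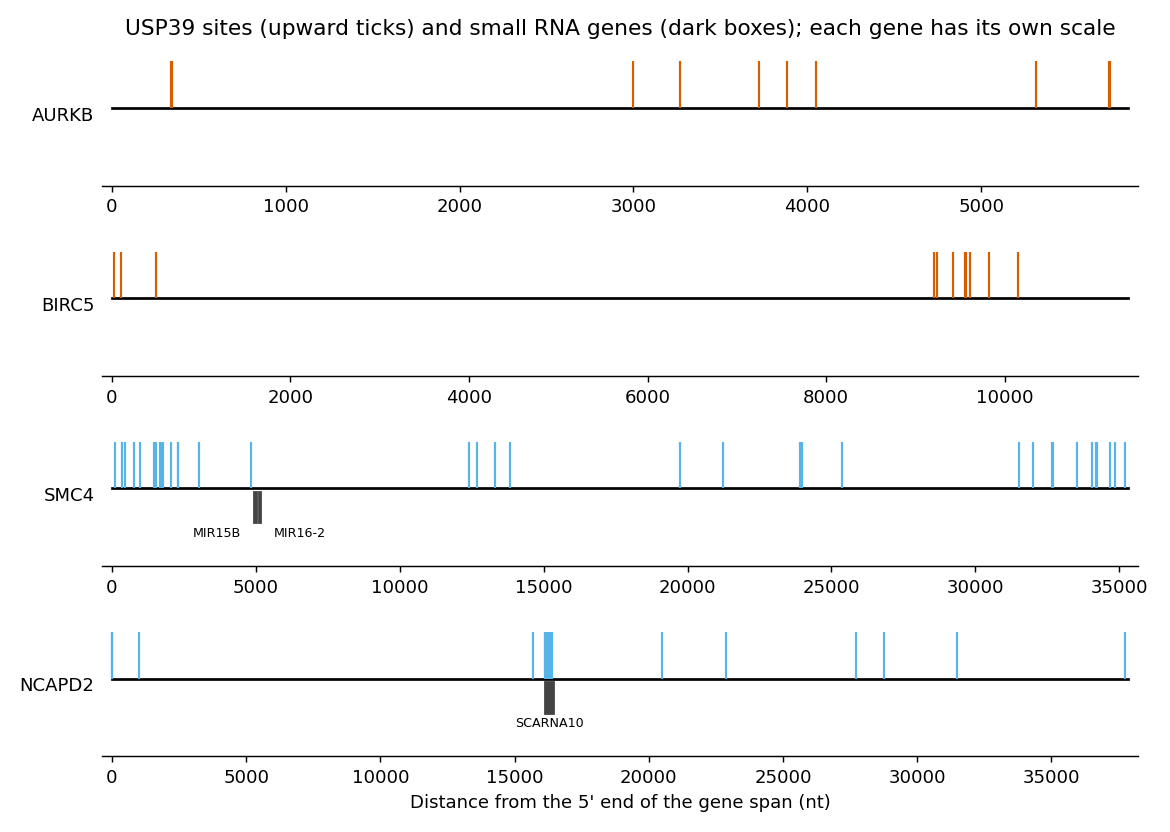
Maps of AURKB, BIRC5, SMC4 and NCAPD2, each to its own scale: the x axis is the distance in nt from the 5′ end of the gene span, upward ticks are USP39 sites and dark boxes are small RNA genes. The BIRC5 sites form 2 groups 8723 nt apart, and 7 of the 18 NCAPD2 sites stand over SCARNA10.

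The other chromosome genes all had sites. TOP2A, the topoisomerase that untangles sister DNA (chr17:40388525-40417896, minus strand), had 14, spread from nucleotide 91 to 28816, and its densest 1000 nt held only 2. MKI67, whose product Ki-67 coats mitotic chromosomes, had 5, each at least 3499 nt from the next. ESPL1, the gene of separase, had 4, with 2 at nucleotides 948 and 1139.

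**Figure D3:**
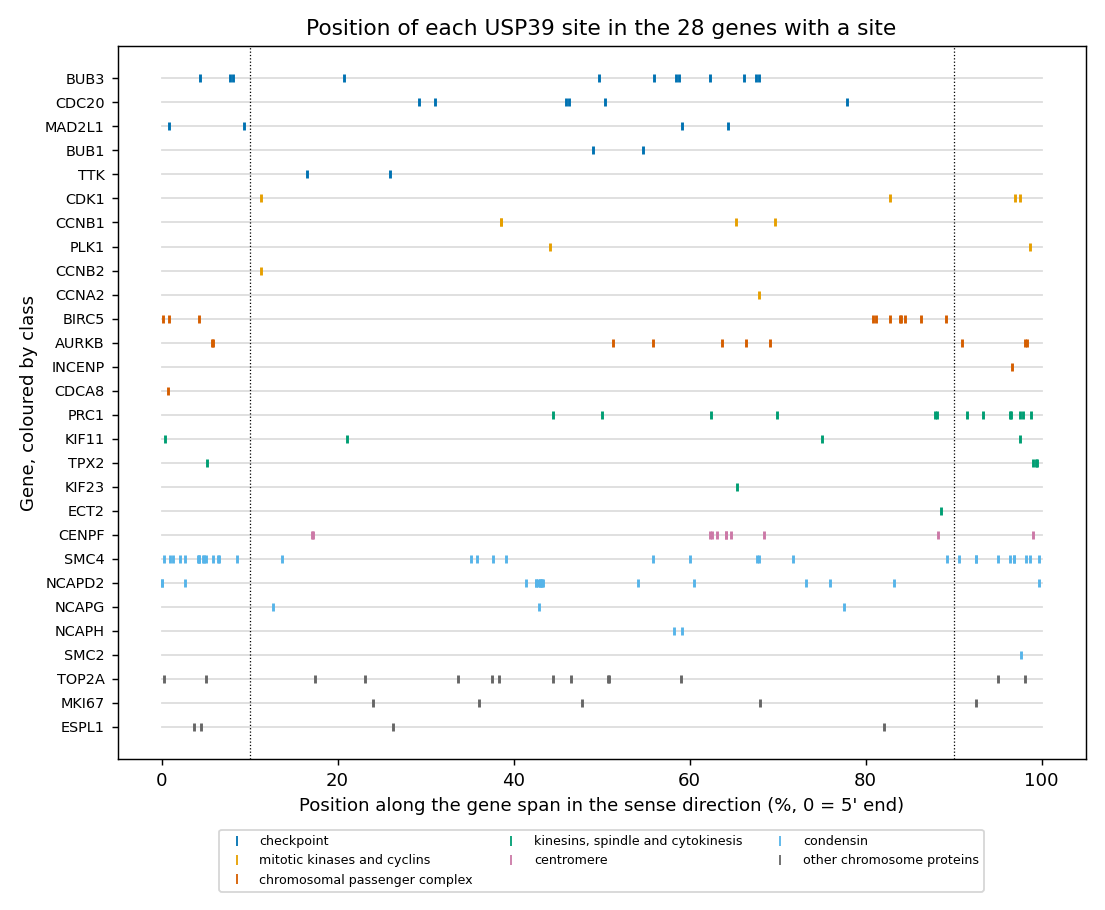
Position of every site in the 28 genes with a site: the x axis is the position along the span in percent, from the 5′ end at 0, each row is a gene coloured by class, each tick is a site, and dotted lines mark 10% and 90%. Sites of PRC1 and TPX2 gather past 90%. No checkpoint gene has a site there, as for 872 of the 2558 protein-coding genes with at least 3 sites.

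Along the gene, with SMC4 counted, the opening and the last 10% of the span held more sites than any other 10%. In the 17 listed genes with at least 3 sites, 31 of 163 sites lay in the last 10% of the span (19.0%, Wilson interval 13.7% to 25.7%). The value over the 2558 protein-coding genes with at least 3 sites was 23.6%. The stretch from 60% to 70% of the span held 24 of the 163 sites (14.7%), beside 8.55% over the protein-coding genes. The opening 10% held 34 of the 163 sites (20.9%, Wilson interval 15.3% to 27.7%), beside 10.9% over the protein-coding genes. SMC4 supplied 15 of those 34. Without SMC4 the opening share was 15% (interval 9.79% to 22.2%) and the share in the last 10% was 16.5% (interval 11.1% to 24.0%). These intervals treat sites as independent, and sites of 1 gene share its transcript. Genes differed widely, with a mean share of 18.3% ± 22.9 (SD over 17 genes) in the last 10% and 7 genes with none there. Over the 2558 protein-coding genes the mean share was 26.3% ± 28.3 (SD), and 872 had none there. Counted in nucleotides, 14 sites in 8 genes lay within the first 500 nt and 38 sites in 14 genes within the last 2000 nt. These windows differ in size, so the counts cannot be set against each other. The same counts over all protein-coding genes are not given here.

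**Figure D4:**
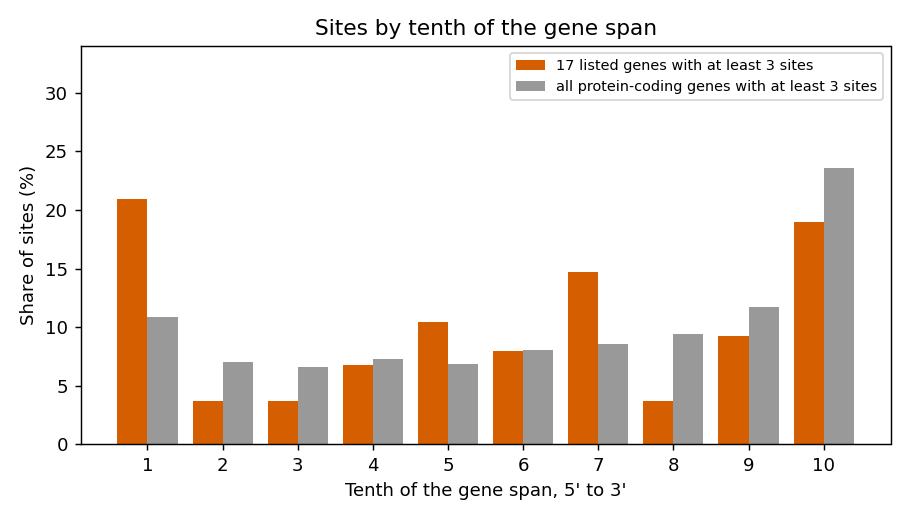
Share of sites in each successive 10% of the gene span (y axis, %; x axis, bins of the span from 5′ to 3′) for the 17 listed genes and for all 2558 protein-coding genes with at least 3 sites. The listed genes are at 20.9% against 10.9% in the opening bin and at 19.0% against 23.6% in the last.

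Some sites stood side by side. Another site of the same gene lay at most 50 nt away for 46 of the 178 sites (25.8%, Wilson interval 20% to 32.7%), beside 34% of the sites of all protein-coding genes. This interval treats sites as independent, although a close couple counts both of its sites, so it is too narrow. A protein-coding gene held up to 180 sites and a listed gene up to 36, and the difference was not tested. Centres at most 10 nt apart occurred 9 times, in 8 genes. AURKB had 2 such couples, 1 near each end of the gene. In AURKB and PRC1 a couple abutted, with centres 5 nt apart.

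Other genes of mitosis also had sites more often than the 23.1% of protein-coding genes. Over 6 further lists, 51 of 84 genes had a site (60.7%, Wilson interval 50% to 70.5%), a share below that of the 34 genes. The intervals overlap, which does not decide whether the shares differ, and no test was made. These lists too were chosen with earlier results of these data known. In the anaphase promoting complex and its partners 12 of 17 genes had a site, led by ANAPC7 with 26, ANAPC5 with 14 and CDC27 with 5. Of the cohesin genes, whose ring holds sister chromatids together, 11 of 16 had a site, with 34 in SMC1A, 18 in STAG2 and 6 in MAU2. All 3 genes specific to condensin II had sites, 17 in NCAPG2, 12 in NCAPD3 and 2 in NCAPH2. Kinetochore genes had a site in 13 of 24, with no more than 8 in any (KNTC1), then 6 in CENPK and 5 in ZWINT. Among regulators of mitotic entry 7 of 15 had a site, with 15 each in MYBL2 and PKMYT1 and 9 in ENSA. PKMYT1 encodes an inhibitory kinase of CDK1, and 4 of its 15 sites lay where its span overlaps PAQR4, which is annotated on the other strand. Other mitotic kinesins had a site in 5 of 9, with 10 in KIF18B, 5 in KIF22 and 3 in KIFC1.

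**Figure D5:**
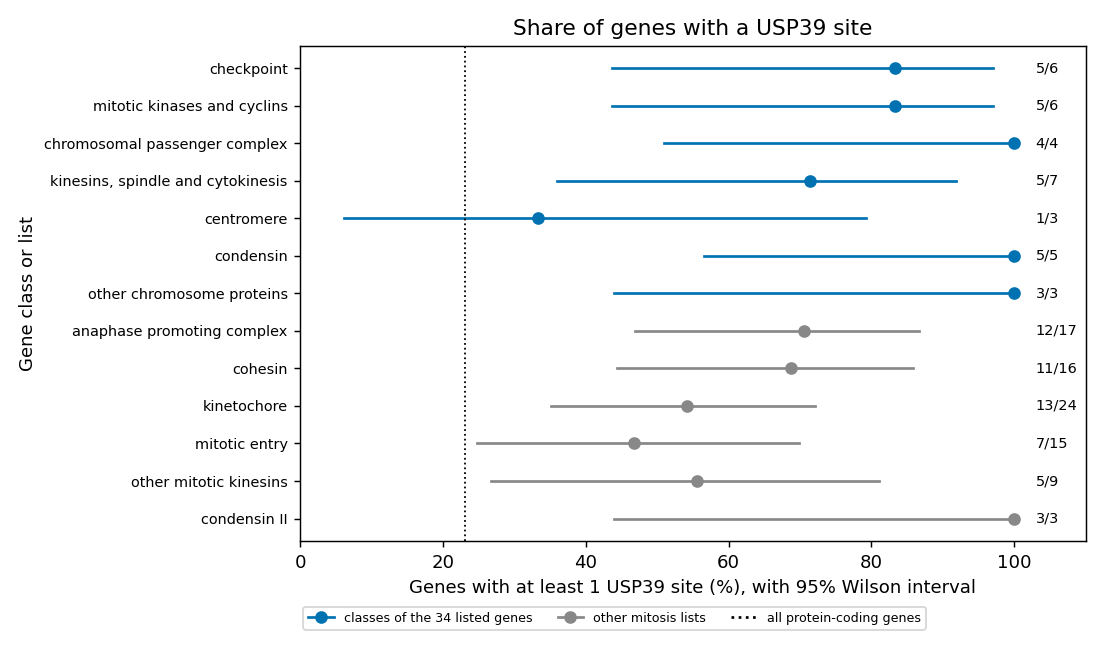
Share of genes with at least 1 USP39 site (x axis, %) in the 7 classes of the 34 genes and in 6 other mitosis lists; points are shares, lines are 95% Wilson intervals for counting error only, the numbers at the right are genes with a site over genes in the list, and the dotted line is the 23.1% of all protein-coding genes. The centromere class, with 1 of 3 genes, is the lowest of the 13.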

How the data were processed

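The authors deposited 1 BED list of merged binding sites with a score of 0 for every site. Per the submitters' processing notes, the build was GRCh38.p12 and UMI-tools 1.1.2, STAR 2.7.3a, bedtools 2.29.2, SAMtools 1.10 and FastQC 0.11.9 were used, their roles and order unstated. How sites were called and filtered, and from which libraries, is not given in the sources used here. Spans came from a RefSeq table of GRCh38.p14, which has no exons, and strands and sequences from RefSeq promoter windows of the same build. All 34 symbols were matched. AURKA, BUB3, TTK, BIRC5 and TPX2 had no promoter entry. A site could count for overlapping genes. All 34 genes were named, with the 3 genes of most sites in each other list, ties taken by symbol. The genes, classes and lists were chosen with earlier results of these data known. Counts, shares and Wilson intervals were computed with Python 3.11.15, numpy 2.4.6, pandas 2.3.3 and scipy 1.17.1, and tested on simulated data. No test between samples could be made from 1 merged list.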

Additional observations from a re-analysis of the deposited data

How the results depend on the processing

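Of the counts and shares, those that moved by over 1.5 times, or out of their Wilson interval, were the following. With at least 3 sites required, 17 of 34 genes had them, and among members that overlap no other gene 15 of 19 had a site, with 81 sites in all. The last 2 counts come from a smaller set of genes. Its share of genes with a site was 78.9%, beside 82.4% of all 34. Leaving out SMC4, a choice made after seeing the data, gave 24 condensin sites in place of 60. Leaving out sites in small RNA genes, also chosen after seeing the data, gave 11 for NCAPD2 and 1 for BUB1. With at least 3 sites required, also chosen after seeing the data for the other mitosis lists, the genes that had them fell from 12 to 6 in the anaphase promoting complex, from 11 to 4 in cohesin, from 13 to 5 at the kinetochore and from 5 to 3 among other mitotic kinesins. The last 20% of the gene held 28.2% of sites, and 13.5% and 33.1% of sites had a neighbour within 20 and 100 nt, as wider windows hold more. Counting any base of a site or joined sites moved no count by that much. Counting both strands could move none, since no listed gene had a site on its opposite strand. Sites by transcript region and near splice sites were not run, since exons were not used here. No replicate could be left out of a merged list. No paired analysis was possible because the merged list carries no replicate values. Depth is unknown and limits every count of 0.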

Other observations

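The partners in the SMC rings had unequal numbers of sites. In condensin SMC4 had 36 and SMC2 had 1, and in cohesin SMC1A had 34 and SMC3 had 1. SMC3 was named after its value was seen. The span of SMC3 is 38354 nt and that of SMC1A 48580 nt. The abundance of these RNAs was not measured, and its part was not tested.

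Sites within 1000 nt outside the spans of the 34 genes numbered 3. One is the SMC4 boundary site printed above. The others lay on the opposite strand, 320 nt beyond CCNA2 in EXOSC9 and 955 nt beyond KIF20A in CDC23.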
